A study of Mus musculus with 2 samples.

Results

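Keratins are the intermediate filament proteins of epithelial cells, and their genes were taken here as every gene whose symbol is Krt followed by a digit. That gave 53 keratin genes among the 31053 genes of the files, 28 of type I and 25 of type II. Of these, 29 had at least 20 UMIs (unique molecular identifiers, which count captured RNA molecules) over both libraries, 14 of type I and 15 of type II, and are described with their values. The other 24 had fewer than 20 UMIs, 9 of them none. Just inside the limit were Krt81 (20 UMIs) and Krt25 (21), and just outside it Krt86 (17), Krt20 (14) and Krt31 (14). Single cells of mouse mammary gland were profiled in 2 libraries, Ctrl and cKO. The Ctrl library came from C57BL/6 mice with the genotype miR-200c/141-flox/flox, whose label names no Cre. The cKO library, from the same strain, carried K8-CreERT2;miR-200c/141-flox/flox. The microRNA pair miR-200c and miR-141 is flanked by loxP sites in both, and CreERT2 is a recombinase that tamoxifen activates. It is driven by the promoter of keratin 8, itself a member of the family described here. Per the labels, both groups received tamoxifen at an age of 8 to 10 weeks with harvest 4 weeks later, and flow sorting was used to enrich mammary cells, while the age label of both samples reads 8 weeks. The labels do not say how many mice went into a library. With 1 library per group there is no replicate and no test between genotypes. All intervals below are 95% intervals that cover counting error only, and the difference between genotypes cannot be told apart from the difference between these libraries.

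A keratin filament is built from pairs of chains, each pair holding a type I (acidic) and a type II (basic) keratin, and an unpaired chain is unstable. Simple epithelia make mainly Krt8 (type II) with Krt18 (type I), and often Krt7 (type II) and Krt19 (type I). Stratified and basal layers make Krt5 (type II) with Krt14 (type I). In the mammary gland, luminal cells carry the simple pair and basal (myoepithelial) cells the Krt5 and Krt14 pair, which is why keratins serve as the usual stain for the epithelial layers. Krt6a, Krt16 and Krt17 are known from wounded or rapidly renewing skin and its appendages, Krt1 and Krt10 from the upper epidermis, Krt4 and Krt13 from moist stratified epithelia such as the oesophagus, and the Krt81 to Krt88 group from hair.

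All 53 genes were found by identifier in the GENCODE M21 annotation. Of the type I genes 27 lay in the cluster on chromosome 11, and the 25 type II genes lay on chromosome 15. Krt18 was the only type I gene on chromosome 15, with its start 23698 bases from that of Krt8 and read away from it. In that annotation, on GRCm38.p6, Krt8 (ENSMUSG00000049382) spans chr15:101996698-102004482 on the minus strand and Krt18 (ENSMUSG00000023043) chr15:102028180-102032027 on the plus strand. Krt19 (ENSMUSG00000020911) spans chr11:100140810-100148665 and Krt14 (ENSMUSG00000045545) chr11:100203162-100207548, both on the minus strand. Krt4 (ENSMUSG00000059668) spans chr15:101918535-101924735 and Krt5 (ENSMUSG00000061527) chr15:101707070-101712898, also on the minus strand. All are annotated as protein coding. The promoter sequences of the luminal pair Krt8 and Krt18, and of the second luminal type II gene Krt7, are shown because the results turn on these genes and because the Krt8 promoter drives the recombinase. Each run holds the 250 bases before the RefSeq gene start on GRCm38.p6, 5′ to 3′ on the gene's own strand, with motif matches in capitals. These starts differ from the GENCODE ones. The Krt7 window lies inside the GENCODE span of Krt7 (chr15:101411043-101430313), and the Krt8 and Krt18 windows partly overlap the spans given above.
Krt8 (chr15:102004343-102004592, minus strand): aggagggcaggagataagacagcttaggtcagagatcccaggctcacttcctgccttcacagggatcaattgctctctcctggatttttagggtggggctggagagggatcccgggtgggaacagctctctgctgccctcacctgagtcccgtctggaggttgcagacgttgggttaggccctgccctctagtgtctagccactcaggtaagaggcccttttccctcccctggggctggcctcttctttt
Krt18 (chr15:102027966-102028215, plus strand): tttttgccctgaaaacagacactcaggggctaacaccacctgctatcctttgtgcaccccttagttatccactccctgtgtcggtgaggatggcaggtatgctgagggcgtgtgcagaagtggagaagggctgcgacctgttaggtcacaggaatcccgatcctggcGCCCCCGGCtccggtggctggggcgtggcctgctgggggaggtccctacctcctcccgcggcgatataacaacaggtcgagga
Krt7 (chr15:101412153-101412402, plus strand): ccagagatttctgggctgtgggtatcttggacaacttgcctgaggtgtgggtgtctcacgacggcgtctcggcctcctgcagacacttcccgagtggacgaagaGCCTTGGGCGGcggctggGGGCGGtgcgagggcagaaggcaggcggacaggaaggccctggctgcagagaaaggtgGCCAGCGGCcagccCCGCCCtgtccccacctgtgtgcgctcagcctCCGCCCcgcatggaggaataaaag
Motifs were searched on both strands. The TATA box was searched as TATAAA, the CCAAT box by those letters, the GC box as GGGCGG, the AP-1 motif as TGANTCA, the grainyhead motif as AACCGGTT and the AP-2 motif as GCCNNNGGC. The Krt18 window held 1 AP-2 match. The Krt7 window held 4 GC boxes and 2 AP-2 matches, the first AP-2 match overlapping a GC box. The Krt8 window held none of the 6 motifs. Among all 32851 RefSeq promoter windows of this length, 13.7% held the AP-2 motif, 32.7% the GC box, 12.4% the TATA box, 33.8% the CCAAT box, 6.75% the AP-1 motif and 0.116% the grainyhead motif. Windows were available for 16 of the 29 keratins, of which 3 held an AP-2 match, 1 a GC box, 4 a TATA box, 6 a CCAAT box, 1 an AP-1 match and 0 a grainyhead match. A match is a description of these letters only.

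After filtering, 3389 Ctrl cells (median depth 19799 UMIs) and 5438 cKO cells (median depth 13905 UMIs) were used. Cell classes were gated on marker genes with every keratin left out. The hormone-sensing-like class (markers such as Prlr, Esr1 and Areg) held 611 Ctrl and 1335 cKO cells. The luminal-progenitor-like class (Csn3, Aldh1a3, Elf5, Kit, Wfdc18) held 670 and 1017, the basal-like class (Acta2, Mylk, Cnn1, Trp63) 1008 and 880, and the endothelial-like class (Pecam1, Cdh5, Emcn) 103 and 494. Another 831 and 1319 cells passed both luminal gates. Their median depth was 48661 and 28282 UMIs, against 22096 and 12792 in the hormone-sensing-like and 20515.5 and 12904 in the luminal-progenitor-like class, and whether they are cell pairs or a mixed state was not tested. Of these cells 33.2% in Ctrl and 30.9% in cKO lay within 2-fold of the gate's edge, so that this class is a range of scores. In the other classes 13 and 53 hormone-sensing-like, 31 and 37 luminal-progenitor-like, 72 and 66 basal-like and 9 and 48 endothelial-like cells did. In unsupervised clusters built without keratins, hormone-sensing-like cells separated by library. Ctrl cells lay mainly in cluster 5 (504 cells) and cKO cells in clusters 12 (974 cells) and 14 (202 cells). Basal-like cells also separated, into cluster 0 for Ctrl and cluster 1 for cKO. Cells that passed both luminal gates lay mainly in cluster 8 for Ctrl (788 cells). For cKO they lay mainly in clusters 11 (459 cells), 13 (652 cells) and 14 (131 cells). Luminal-progenitor-like cells of both libraries shared clusters 2 and 3. The libraries had 5 cell barcodes in common among the cells used. Endothelial cells lack most keratins, so the keratin UMIs of endothelial-like cells were taken here as background. Whether they came from free RNA in the suspension was not tested. Krt8, Krt18, Krt19 and Krt7 stood there at 0.681 to 1.32% of their level over all cells. The share was not the same for all keratins: Krt14 stood at 1.14% in Ctrl and 3.33% in cKO. Krt17 stood at 0.709% and 2.50%, and Krt79 at 34.5% (4 UMIs) and 6.09% (7 UMIs).

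Keratins made up 2.79% of all UMIs in hormone-sensing-like cells of Ctrl and 2.88% in cKO. Shares of 2.96% and 3.50% in luminal-progenitor-like cells, 1.52% and 1.40% in basal-like cells, and 0.0192% and 0.0290% in endothelial-like cells were found. A few genes carried each class. Krt18 gave 87% and 88.9% of type I UMIs in hormone-sensing-like cells and 89.1% and 95.1% in luminal-progenitor-like cells. Krt8 gave 69.2% and 63.9% of type II UMIs in the former and 91.9% and 85% in the latter. In basal-like cells type I was shared by Krt14 (52.2% and 55.3%) and Krt17 (38.4% and 32.8%). Type II was shared there by Krt5 (51.8% and 54.8%) and Krt8 (45.5% and 40.8%). Type I UMIs outnumbered type II UMIs in every class of both libraries. These are 3′ tags counted per molecule and not per length, and differences in capture between genes were not measured, so a ratio between genes is read here only across classes and libraries.

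**Figure D1:**
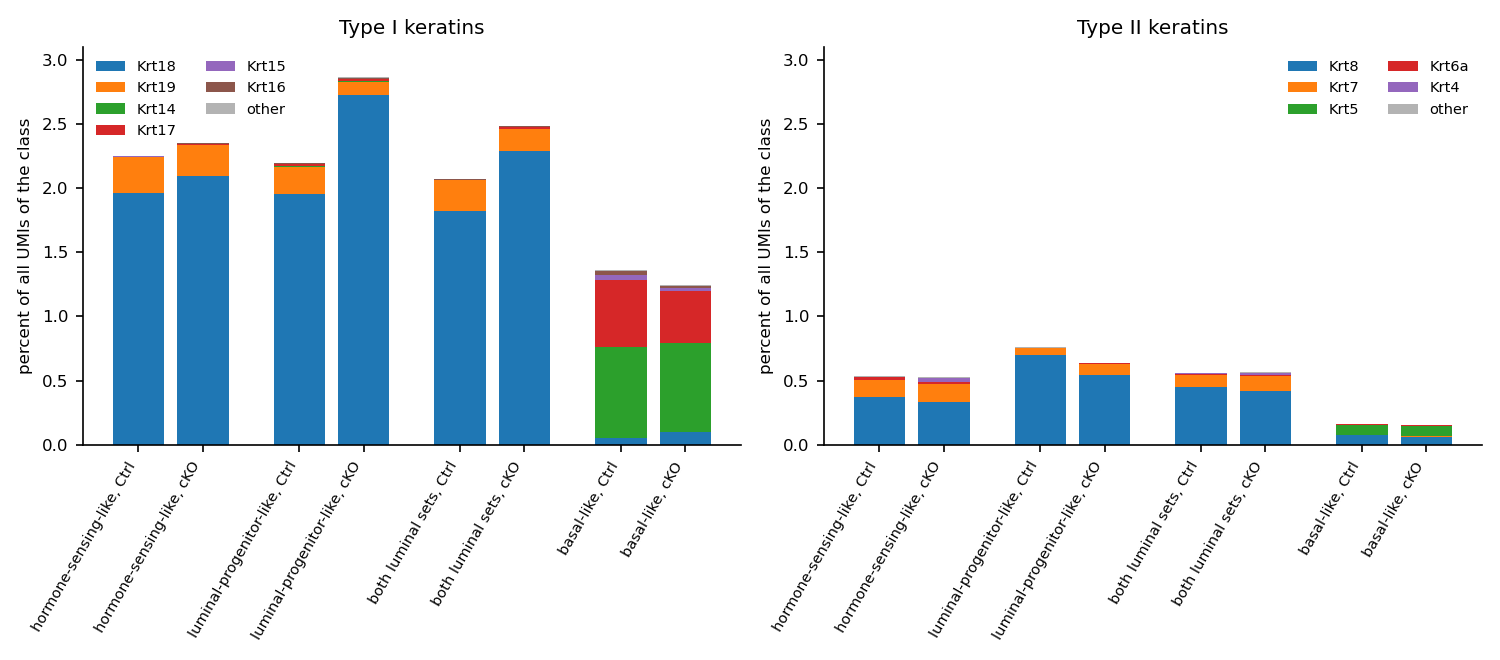
Share of all UMIs of a class taken by each keratin (percent), stacked by gene, for type I (left) and type II (right) in Ctrl and cKO. Krt18 fills most of each luminal type I bar, Krt14 and Krt17 fill the basal-like ones, and the type II bars are lower in every class.

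Krt18, the type I chain of simple epithelia, was the most abundant keratin of the luminal classes. Its level, in UMIs per 1000000 UMIs of the class (CPM), was 19599.9 (95% interval 19531 to 19669.5) in Ctrl and 20933 (20869 to 20997) in cKO in hormone-sensing-like cells. The luminal-progenitor-like level was 19561 (95% interval 19493 to 19629) in Ctrl and 27246 (27165 to 27328) in cKO. The luminal classes of Ctrl thus had nearly the same level, and those of cKO did not. In basal-like cells the level was 502 (95% interval 489.8 to 515) in Ctrl and 969.7 (947 to 992) in cKO, and endothelial-like cells had 107 (95% interval 94.1 to 121) in Ctrl and 183 (176 to 191) in cKO. The cKO-over-Ctrl ratio was 1.93-fold (1.87 to 2.0) in basal-like and 1.72-fold (1.51 to 1.96) in endothelial-like cells. The part of free RNA in the basal-like ratio was not tested. With every cell thinned to 2000 UMIs, 55.9% (52.7 to 59%) of basal-like cells had a Krt18 UMI in Ctrl and 76.1% (73.1 to 79%) in cKO, against 94.3% and 96.9% before thinning. The background shares in endothelial-like cells, whose median depth was 19430 and 21095 UMIs, were 24.8% (16.7 to 34.3%) and 28.9% (24.9 to 33.1%). Median depth of the basal-like cells was 10461 and 7482.5 UMIs, and 20 and 21 of them were too shallow to thin.

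Krt8, the type II partner of Krt18, was highest in the luminal-progenitor-like class of both libraries. Its level there was 6993 (95% interval 6952 to 7034) in Ctrl and 5432 (5395 to 5468) in cKO. The hormone-sensing-like level was 3691 (95% interval 3661 to 3722) in Ctrl and 3363 (3337 to 3388) in cKO, and the basal-like level 721 (95% interval 706 to 736) in Ctrl and 617 (599 to 636) in cKO. Krt8 was lower in cKO in each of these classes, by 1.10-fold, 1.29-fold and 1.17-fold in hormone-sensing-like, luminal-progenitor-like and basal-like cells. None of these reached the 1.5-fold mark used for counts below. Basal-like cells held Krt8 well above background: 67.4% and 63.6% of thinned cells had a UMI, against 5.94% and 8.40% of endothelial-like cells.

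Krt19, a small type I chain without the usual tail, was highest in hormone-sensing-like cells at 2810.2 (95% interval 2784 to 2837) in Ctrl and 2391 (2369.7 to 2413) in cKO. The luminal-progenitor-like level was 2079.6 (95% interval 2057 to 2102) in Ctrl and 1058 (1042 to 1074) in cKO, 1.97-fold (1.93 to 2.0) lower in cKO. Among thinned luminal-progenitor-like cells, 87.8% (85.1 to 90.2%) had a Krt19 UMI in Ctrl and 68.7% (65.7 to 71.5%) in cKO, against 0.990% and 3.69% in endothelial-like cells. Before thinning these shares were 99.1% and 95%. The Krt19 difference was therefore a lower level in cells that mostly still held the transcript. Basal-like cells had a Krt19 CPM of 34.3 in Ctrl and 37.6 in cKO.

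Krt7, the second type II chain of simple epithelia, went the other way from Krt19 in luminal-progenitor-like cells. Its level was 573 (95% interval 561 to 585) in Ctrl and 894 (879 to 909) in cKO there, 1.56-fold (1.52 to 1.60) higher in cKO. In hormone-sensing-like cells, where it was highest, the level was 1337 (95% interval 1319 to 1356) in Ctrl and 1387 (1371 to 1404) in cKO. Basal-like cells had 21.6 in Ctrl and 45.6 in cKO, 2.12-fold (1.79 to 2.50) higher in cKO, with endothelial-like cells at 7.03 in Ctrl and 9.91 in cKO. The basal-like share of thinned cells with a Krt7 UMI was 2.53% (1.64 to 3.71%) and 5.47% (4.05 to 7.21%). The background was 0 of 101 endothelial-like Ctrl cells, which allows a share of up to 2.97%, and 1.23% (0.453 to 2.66%) in cKO.

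Krt14, the basal type I chain, stood at 7105 (95% interval 7058 to 7152) in Ctrl and 6887 (6827 to 6947) in cKO in basal-like cells. It was found there in 98.9% and 99.2% of thinned cells. Krt17, the second basal type I chain, stood at 5223 (95% interval 5182 to 5263) in Ctrl and 4087 (4041 to 4134) in cKO. Their type II partner Krt5 was at 820.0 (95% interval 804 to 836) in Ctrl and 829.7 (809 to 851) in cKO. All 3 lay within 1.5-fold between the libraries, the farthest being Krt17 at 1.28-fold (1.26 to 1.30) lower in cKO over the class. Most basal-like cells of Ctrl and cKO lay in different clusters, and within a cluster the picture for Krt5 was another. Krt5 was 1.64-fold (1.55 to 1.73) higher in cKO within cluster 0 (903 Ctrl and 94 cKO cells) and 1.52-fold (1.31 to 1.76) higher within cluster 1 (54 and 775 cells). Within the same clusters Krt14 was at 0.937 and 1.04 times and Krt17 at 0.917 and 0.920 times the Ctrl level. Krt5 was nearly absent from luminal cells, at 2.62 in Ctrl and 2.19 in cKO in hormone-sensing-like and 2.78 in Ctrl and 4.11 in cKO in luminal-progenitor-like cells. In luminal-progenitor-like cells Krt14 was at 111 in Ctrl and 58.3 in cKO and Krt17 at 96.2 in Ctrl and 166 in cKO. Few of these cells held a Krt14 UMI once thinned: 5.41% (3.82 to 7.42%) in Ctrl and 4.45% (3.26 to 5.90%) in cKO, against 4.95% (1.63 to 11.2%) and 1.84% (0.847 to 3.47%) of endothelial-like cells, so the Ctrl share was not above background beyond its interval. For Krt17 the shares were 9.62% (7.49 to 12.1%) and 12.6% (10.7 to 14.9%), against 0.990% (0.0251 to 5.39%) and 1.64% (0.710 to 3.20%). The 10% of luminal-progenitor-like cells highest in Krt14 held 93.3% of its UMIs in Ctrl and 91.7% in cKO. The 7 basal markers summed to 27 and 39.9 CPM in those cells, led by Tagln. In basal-like cells they summed to 7354 and 11988.

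Krt15, a type I chain of basal epidermal cells, was highest in basal-like cells at 394 (95% interval 383 to 406) in Ctrl and 214 (204 to 225) in cKO, 1.84-fold (1.74 to 1.95) lower in cKO. Within clusters it was at 0.688 (0.612 to 0.772) times the Ctrl level in cluster 0 and 0.992 (0.794 to 1.25) times in cluster 1, neither past the mark. Krt16, a type I partner of Krt6a, was also highest there at 246 (95% interval 237 to 255) in Ctrl and 164 (155 to 174) in cKO, 1.5-fold (1.40 to 1.60) lower and just short of the 1.5-fold mark. Krt42, a rodent type I keratin, stood at 62.2 in Ctrl and 48.1 in cKO and Krt23 at 23.5 in Ctrl and 24 in cKO in basal-like cells. Of the hormone-sensing-like, luminal-progenitor-like and basal-like classes, the basal-like one thus had the highest level of 7 keratins in both libraries: Krt5, Krt14, Krt15, Krt16, Krt17, Krt23 and Krt42.

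Krt6a and Krt4 were the next type II genes of hormone-sensing-like cells. Krt6a stood at 235 (95% interval 228 to 243) in Ctrl and 148 (143 to 154) in cKO there, 1.59-fold (1.51 to 1.67) lower in cKO, and 24.3% and 16.2% of thinned cells had a UMI. Krt4 was at 40.7 (95% interval 37.6 to 44) in Ctrl and 306 (298 to 314) in cKO, 7.52-fold (6.93 to 8.18) higher in cKO. The thinned share of cells with a Krt4 UMI was 3.64% (2.29 to 5.45%) in Ctrl and 27.4% (25 to 29.9%) in cKO. Before thinning the shares were 19.5% and 54.5%. Among thinned endothelial-like cells 0 of 101 in Ctrl (a share of up to 2.97%) and 0.820% in cKO had one. The Krt4 level was high in each cKO cluster of these cells, at 197, 301 and 401 CPM in clusters 11, 12 and 14. In the Ctrl clusters 5 and 8 it was 39.4 and 27.4. The 10% of cells highest in Krt4 held 90.9% of its UMIs in Ctrl and 59.8% in cKO. Krt4 was also higher in cKO in cells with both marker sets, at 17.1 in Ctrl and 176 in cKO.

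Lower still were Krt78 and Krt79, type II keratins of stratified epithelium and skin appendages, at 13 in Ctrl and 20.1 in cKO and 4.09 in Ctrl and 18.5 in cKO in hormone-sensing-like cells. Krt87, of the hair group, was at 3.01 in Ctrl and 2.70 in cKO. Krt80, a type II chain that associates with desmosomes, was highest in luminal-progenitor-like cells at 23.7 in Ctrl and 25.7 in cKO. Krt10, the type I chain of the upper epidermis, was spread over all epithelial classes, from 12.8 CPM in basal-like Ctrl cells to 26.5 in hormone-sensing-like cKO cells. Endothelial-like cells had 2.89 in Ctrl and 3.07 in cKO, which was 15% and 14.7% of its level over all cells. Of the 7 listed skin keratinocyte markers, 5 were found in hormone-sensing-like cells of either library, and their sum was 94.6 and 84.8 CPM. Flg and Dsg1a had at most 1 UMI in any epithelial class, Lor at most 2.56 CPM, and Ivl at most 4 UMIs. Lgals7 and Sbsn, of the same list, were present at up to 909 CPM (Lgals7 in basal-like Ctrl cells) and 374 CPM (Sbsn in luminal-progenitor-like cKO cells).

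The remaining members were rare. In hormone-sensing-like cells Krt1 had 12 UMIs in Ctrl and 43 in cKO, Krt13 2 and 65, Krt77 1 and 21, and Krt83 1 and 34. The 34 Krt83 UMIs came from 3 cells, the 65 Krt13 UMIs from 40 cells and the 43 Krt1 UMIs from 42 cells. Krt25 (hair root sheath), Krt32, Krt36, Krt76, Krt81 and Krt88 stayed at or below 0.820 CPM in each of these classes. Krt36 had 12 and 25 UMIs in cells with both luminal sets, Krt88 8 and 20, Krt32 15 and 20, Krt76 1 and 16, Krt81 4 and 5, and Krt25 6 and 3. Krt222, a keratin-like gene, stood apart from the family: 7 of its 8 UMIs in Ctrl and 24 of 27 in cKO lay in endothelial-like cells (CPM of 2.89 in Ctrl and 2.10 in cKO), with at most 1 in any epithelial class.

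Class order was shared by the libraries for most members. Of 20 keratins with at least 20 UMIs in each library over the hormone-sensing-like, luminal-progenitor-like and basal-like classes, 16 had the same highest class in both and 14 the same full order. Krt10, Krt19, Krt7, Krt87, Krt6a, Krt4 and Krt78 were highest in hormone-sensing-like cells, and Krt8 and Krt80 in luminal-progenitor-like cells. The 4 whose highest class differed were Krt1, Krt18, Krt32 and Krt79. The intervals of neighbouring classes overlapped for Krt18 in Ctrl (hormone-sensing-like against luminal-progenitor-like) and for Krt1 and Krt32 in both libraries. For Krt79 the luminal-progenitor-like level led in Ctrl and the hormone-sensing-like level in cKO, with no overlap. The cells with both luminal sets lay between these classes for 15 of the 20 keratins in Ctrl and 17 in cKO.

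**Figure D2:**
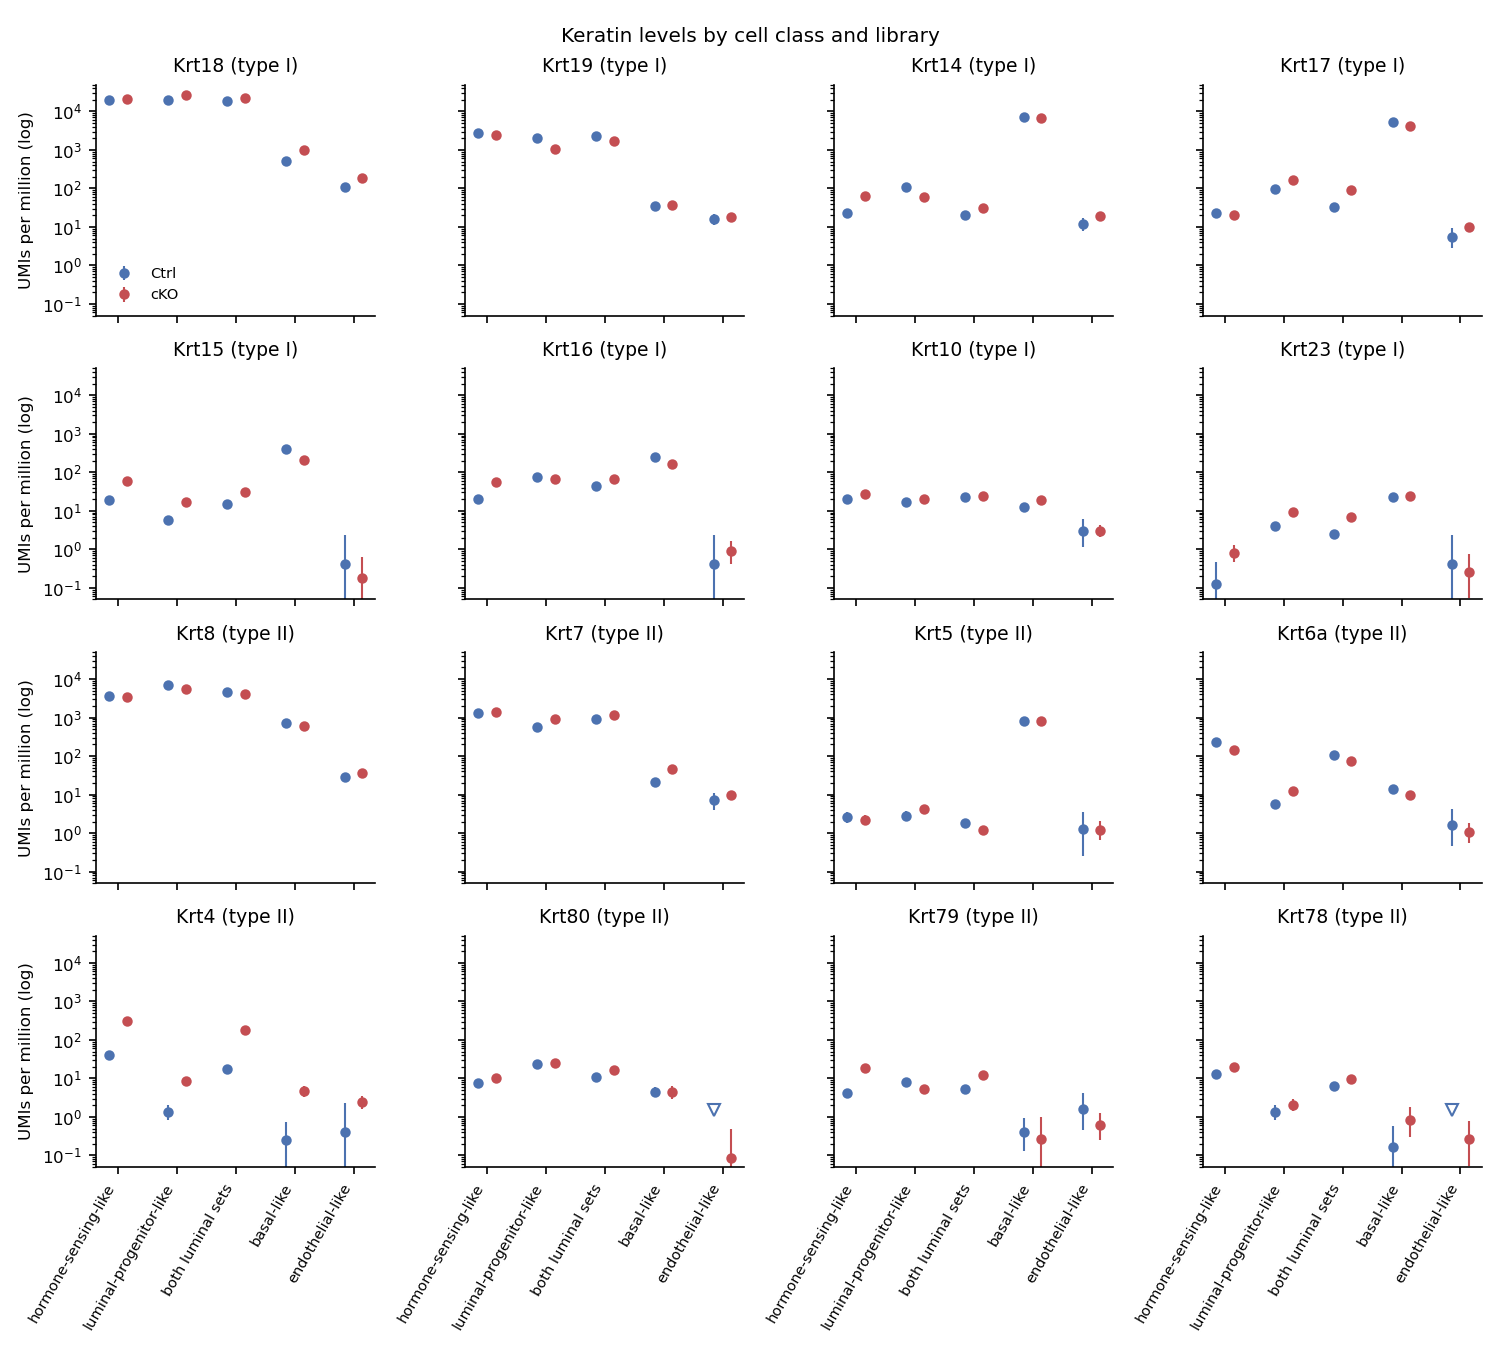
Level of 16 keratins in CPM (log axis) in 5 cell classes of Ctrl (blue) and cKO (red). Points are sums over the cells of a class, bars are 95% Poisson intervals, and an open triangle is the upper limit where no UMI was found. Within hormone-sensing-like cells, Krt4 shows the widest gap on this axis between the libraries among the genes drawn (40.7 against 306 CPM). Its gap is wider still in cells with both luminal sets (17.1 against 176) and in basal-like cells (0.247 against 4.64, from 3 and 34 UMIs).

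The libraries were then compared class by class. A keratin counted as higher or lower when its CPM ratio was at least 1.5-fold, for genes whose UMIs in that class reached 20 over both libraries. No test stands behind these counts. In hormone-sensing-like cells (clusters 5 and 8 in Ctrl, and 11, 12 and 14 in cKO), 11 of 21 keratins were higher and 1 lower in cKO. Over all 12494 genes measured in that class, 13.7% were higher and 18.3% lower. The median log2 ratio of the keratins was 0.63, against -0.08 for all genes. Only 6 of the 11 had at least 20 UMIs in each library. Over the 16 keratins with that many in each, 6 were higher and 1 lower. The keratin median takes in Krt13, Krt83, Krt77, Krt42 and Krt1, which had fewer than 20 UMIs in Ctrl. Such members are measured mainly through the library where they are high, so no shift of the whole family is read from that median. The highest ratios were those of Krt83 (27.1-fold, 4.55 to 1102), Krt13 (25.9-fold, 6.89 to 218) and Krt77 (16.7-fold, 2.69 to 692), each resting on 1 or 2 Ctrl UMIs. Krt4 followed at 7.52-fold (6.93 to 8.18) and Krt79 at 4.51-fold (3.45 to 5.98). Krt42, at 5 and 19 UMIs, Krt1 at 2.86-fold (1.48 to 5.95) and Krt78 at 1.55-fold (1.31 to 1.85) were also counted as higher. The Krt78 call was lost in keratin-free clusters (log2 ratio 0.15) and with each cell weighted equally (0.47). Krt6a was the member that was lower. The abundant chains differed little: Krt18 at 1.07-fold (1.06 to 1.07), Krt7 at 1.04-fold (1.02 to 1.06), Krt8 at 0.911-fold (0.901 to 0.921) and Krt19 at 0.851-fold (0.840 to 0.862). Krt10 at 1.28-fold (1.11 to 1.47), Krt80 at 1.31-fold (1.04 to 1.66), Krt17 at 0.920-fold (0.797 to 1.06), Krt87 at 0.899-fold (0.595 to 1.36) and Krt5 at 0.836-fold (0.532 to 1.32) were also within the mark. In keratin-free clusters Krt17 (log2 ratio 2.24), Krt80 (1.29) and Krt5 (0.60) passed it upwards, and with each cell weighted equally Krt5 (1.04) and Krt80 (0.65) did.

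Krt14, Krt15 and Krt16 were higher in hormone-sensing-like cells of cKO, and few cells held most of their UMIs. Krt14 was at 22.8 (95% interval 20.5 to 25.3) in Ctrl and 61.8 (58.3 to 65.3) in cKO, 2.70-fold (2.40 to 3.05) higher in cKO. Yet 20.6% of Ctrl and 16.9% of cKO cells had a Krt14 UMI before thinning, and the 10% of cells highest in it held 82.1% and 92.5% of its UMIs. The level was 296 CPM in cluster 14 of cKO and 14.3 in cluster 12. Without the cells of cluster 14, an alternative chosen after seeing the data, the log2 ratio of Krt14 went from 1.44 to -0.14, that of Krt16 from 1.43 to 0.68 and that of Krt15 from 1.65 to 1.35. Without those cells 8 of 19 keratins were higher and 1 lower, with 11.8% and 18.9% of all 12272 genes. Krt42 and Krt77 had then fewer than 20 UMIs, and Krt14 was no longer past the mark. In the keratin-free clusters, which follow the clusters and not the gate, the log2 ratios were higher than over the gated class, 2.89 for Krt14 and 2.08 for Krt16. Between the largest cluster of each library (5 in Ctrl and 12 in cKO) Krt14 stood at 10.5 and 14.3 CPM, 1.36-fold (1.07 to 1.72), Krt16 differed by 1.42-fold (1.18 to 1.72) and Krt15 by 2.43-fold (2.10 to 2.82). Ctrl cluster 8 held Krt14 at 63.2 CPM. Krt15 was at 19.3 (95% interval 17.1 to 21.6) in Ctrl and 60.6 (57.2 to 64.2) in cKO and Krt16 at 20.7 (95% interval 18.5 to 23) in Ctrl and 55.7 (52.5 to 59.2) in cKO, with 96.8% and 97.4% of their cKO UMIs in the highest 10% of cells. Cluster 14 was led by 1110017D15Rik, Prl2c5, Mns1 and Pifo. Its hormone-sensing-like cells had the hormone-sensing markers at 4648 CPM in sum, against 7973 in cluster 12, and the 7 basal markers at 22.9, against 17.3. The part of other cell types in its Krt14 was not tested.

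In luminal-progenitor-like cells, 7 of 18 keratins were higher and 3 lower in cKO, with 7.21% and 13.7% of all 11901 genes measured there. Of the 7 higher, 6 had at least 20 UMIs in each library. The median log2 ratio was 0.52, against -0.11 for all genes. The trimmed-mean centre of all genes lay at -0.11 in this class and at -0.13 in cells with both luminal sets, and relative to it 10 keratins were higher and 3 lower here, with 9.6% and 9.67% of all genes. Krt19 (1.97-fold, 1.93 to 2.0) and Krt14 (1.90-fold, 1.75 to 2.06) were lower in cKO. For Krt14 the size depended on the cells taken: it was 3.25-fold lower in cluster 2 and 1.77-fold lower in cluster 3, and its log2 ratio was -1.88 in keratin-free clusters against -0.92. Krt42 was lower at 45 and 27 UMIs, with an interval that reaches equality (1.63-fold, 0.988 to 2.73). Those higher were Krt7 (1.56-fold, 1.52 to 1.60), Krt17 (1.72-fold, 1.62 to 1.83), Krt23 (2.34-fold, 1.74 to 3.18), Krt4 (6.38-fold, 4.05 to 10.5), Krt1 (3.66-fold, 1.54 to 10.0), Krt15 (2.91-fold, 2.28 to 3.73) and Krt6a (2.10-fold, 1.63 to 2.72). Krt4 was low here, at 1.36 CPM in Ctrl and 8.67 in cKO, against 0.414 and 2.45 in endothelial-like cells. Its ratio was 4.52-fold (2.46 to 8.85) in cluster 2 and 3.04-fold (1.25 to 8.42) in cluster 3. The part of free RNA in these Krt4 values was not tested. Krt18 (1.39-fold, 1.39 to 1.40) and Krt8 (1.29-fold lower, 1.28 to 1.30) differed in opposite directions without passing the mark. Krt10, Krt16, Krt80, Krt5, Krt78 and Krt79 lay within it, between 0.680 and 1.49 times the Ctrl level. With trimmed-mean scaling Krt18 (log2 ratio 0.587), Krt5 (0.674) and Krt78 (0.684) just passed the mark upwards. Krt15 and Krt6a depended on which cells were taken: Krt15 stood at 3.72 and 1.5 CPM in clusters 2 and 3 of cKO against 16.5 in the class, and its UMIs lay in 38 Ctrl and 31 cKO cells. In the keratin-free clusters named from the same markers, their log2 ratios were -1.16 and -0.77 in place of 1.54 and 1.07, and 4 of 18 keratins were higher and 7 lower, with 6.18% and 14.5% of all 11918 genes. Krt17 (0.54) was not past the mark there, and Krt5 (-2.00) was lower.

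Cells with both luminal marker sets had 16 of 25 keratins higher and 2 lower, with 11.5% and 17.2% of all 13780 genes. Only 11 of the 16 had at least 20 UMIs in each library. Over the 19 keratins with that many in each, 11 were higher and 2 lower. Here the median log2 ratio was 0.66, against -0.13 for all genes. It takes in members measured mainly through cKO, such as Krt13 (3 and 81 UMIs) and Krt83 (7 and 46 UMIs), so no family shift is read from it. Krt4 (10.3-fold, 9.54 to 11.1), Krt17 (2.64-fold, 2.49 to 2.81), Krt23 (2.73-fold, 2.18 to 3.44), Krt79 (2.29-fold, 1.97 to 2.68) and Krt15 (2.02-fold, 1.83 to 2.22) were among those higher. Those lower were Krt87 (1.76-fold, 1.26 to 2.48) and Krt5 (1.51-fold, 1.05 to 2.19). Krt19 was 1.35-fold (1.34 to 1.37) lower and Krt18 1.25-fold (1.25 to 1.26) higher, both within the mark. These class values join unlike clusters. Krt18 was at 18284 CPM in Ctrl cluster 8, and at 30902, 17687 and 22303 in cKO clusters 11, 13 and 14. In the same order Krt17 was at 33.4, then 144, 54.9 and 82.2, and Krt19 at 2352, then 1798, 1724 and 1563.

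In basal-like cells, 3 of 15 keratins were higher and 1 lower in cKO, with 9.89% and 9.07% of all 11177 genes. With trimmed-mean scaling 3 were higher and 2 lower, with 8.62% and 10.1% of all genes. The median log2 ratio was -0.04, against 0.04 for all genes. The 3 higher were Krt18 (1.93-fold, 1.87 to 2.0), Krt7 (2.12-fold, 1.79 to 2.50) and Krt4, at 3 and 34 UMIs (18.8-fold, 5.92 to 95.7), which are luminal keratins. These were at 107 and 183, 7.03 and 9.91, and 0.414 and 2.45 CPM in endothelial-like cells, and the part of free RNA in the basal-like values was not tested. Within clusters Krt18 was 1.93-fold (1.81 to 2.07) higher in cluster 0 and 1.43-fold (1.26 to 1.63) higher in cluster 1, the latter short of the mark. Krt15 was lower over the class, as given above. Krt16 was at 0.667 and Krt6a at 0.696 times the Ctrl level, and the other members (Krt5, Krt8, Krt10, Krt14, Krt17, Krt19, Krt23, Krt42 and Krt80) lay between 0.773 and 1.49 times it. In endothelial-like cells 4 of 9 keratins were higher and 0 lower, with 20.7% and 9.65% of all 10714 genes. These 4 were Krt4 (1 and 28 UMIs), Krt14, Krt17 (13 and 112 UMIs) and Krt18, and only 2 of them had at least 20 UMIs in each library.

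**Figure D3:**
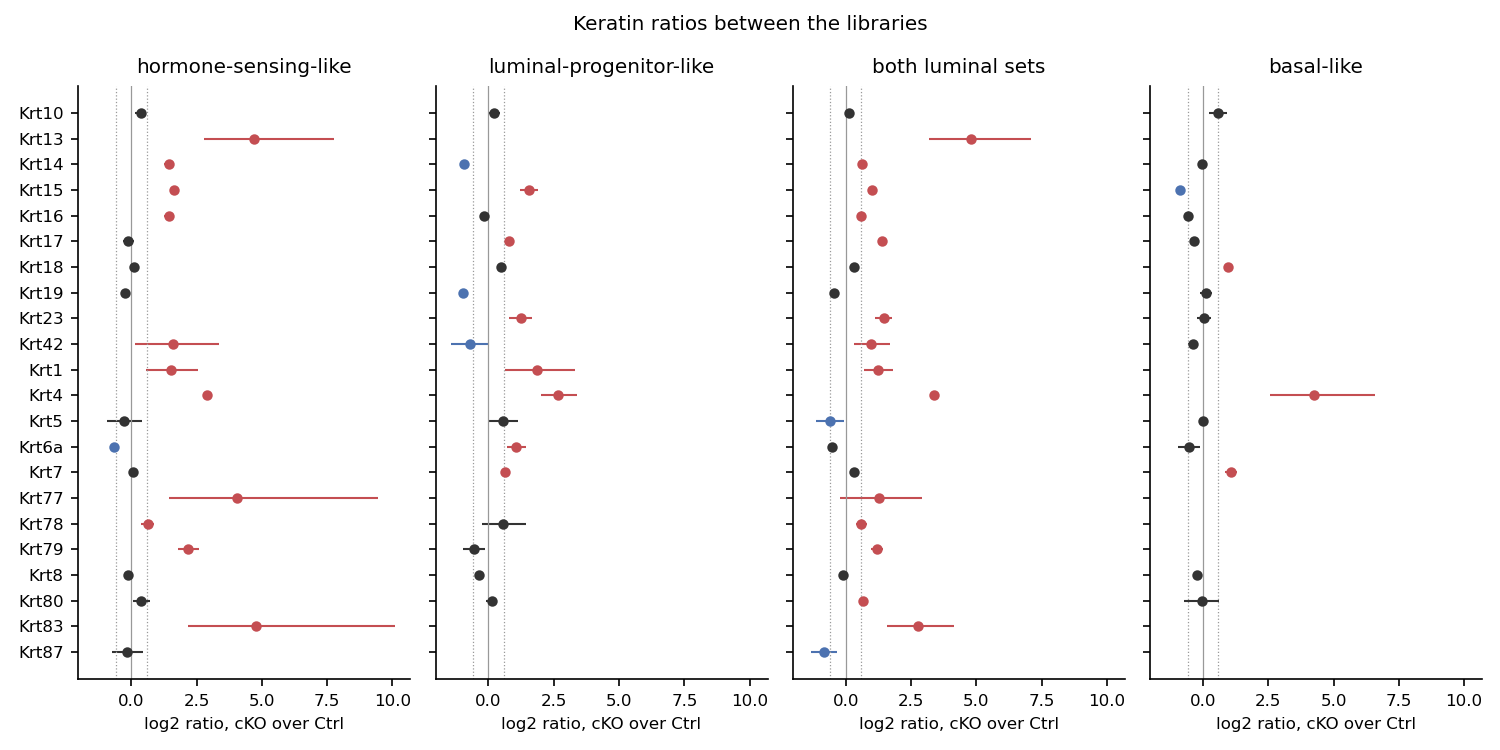
The log2 ratio of cKO over Ctrl for 22 keratins in 4 classes, with 95% counting intervals. Red points are at least 1.5-fold higher, blue points at least 1.5-fold lower, dark points within (dotted lines mark 1.5-fold). The points of Krt19 and Krt14 lie left of the mark in luminal-progenitor-like cells, and Krt4 lies right of it in all 4 classes. Krt4 rests on 22 and 137 UMIs in luminal-progenitor-like and on 3 and 34 in basal-like cells.

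The balance of the luminal chains was set out as ratios of UMI sums. In hormone-sensing-like cells there were 5.31 (5.26 to 5.36) Krt18 UMIs per Krt8 UMI in Ctrl and 6.23 (6.17 to 6.28) in cKO. In luminal-progenitor-like cells the ratio was 2.80 (2.78 to 2.82) in Ctrl and 5.02 (4.98 to 5.05) in cKO. In cells with both marker sets it was 4.06 (4.04 to 4.08) and 5.50 (5.47 to 5.53). The Ctrl luminal classes were thus farther apart in this ratio than the cKO classes, with log2 changes of 0.23 (hormone-sensing-like) and 0.84 (luminal-progenitor-like). Basal-like cells had 0.697 (0.675 to 0.720) and 1.57 (1.51 to 1.63), so that of these classes and the endothelial-like one Krt8 exceeded Krt18 only in basal-like Ctrl cells. The basal-like difference was seen in either basal cluster: 0.665 (0.642 to 0.688) and 1.43 (1.29 to 1.57) in cluster 0, and 0.861 (0.725 to 1.02) and 1.52 (1.46 to 1.59) in cluster 1. Endothelial-like cells, as background, had 3.69 (2.82 to 4.87) and 5.04 (4.53 to 5.61).

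The ratio of Krt18 to Krt19, which are alternative type I partners of Krt8, went from 9.41 (9.30 to 9.51) in Ctrl to 25.8 (25.4 to 26.2) in cKO luminal-progenitor-like cells. The hormone-sensing-like values were 6.97 (6.91 to 7.04) and 8.75 (8.67 to 8.84). The sum of Krt18 and Krt19 per Krt8 was 3.09 and 5.21 in luminal-progenitor-like cells, so the lower Krt19 in cKO did not offset the higher Krt18. The ratio of Krt8 to Krt7, the luminal type II pair, was 12.2 (12 to 12.5) and 6.08 (5.97 to 6.19) there. Over the whole family, type I per type II UMI was 2.88 (2.87 to 2.90) and 4.48 (4.45 to 4.52) in luminal-progenitor-like cells. The same ratio was 4.22 (4.19 to 4.25) and 4.48 (4.44 to 4.51) in hormone-sensing-like cells and 8.59 (8.46 to 8.72) and 8.22 (8.06 to 8.39) in basal-like cells. The small hormone-sensing-like difference was absent in the median over cells (log2 2.08 in both libraries). Over the basal-like class Krt14 per Krt5 was 8.66 (8.49 to 8.85) and 8.30 (8.08 to 8.53). Within clusters it was lower in cKO, at 8.53 (8.35 to 8.72) and 4.88 (4.62 to 5.15) in cluster 0 and 14.1 (12.2 to 16.4) and 9.67 (9.38 to 9.98) in cluster 1, so the class values lay closer than those of either cluster. Over the class Krt14 per Krt17 was 1.36 (1.35 to 1.37) and 1.68 (1.66 to 1.71).

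Per cell, thinned to 2000 UMIs and with 1 UMI added to each count, the median log2 ratio of Krt18 to Krt8 in luminal-progenitor-like cells was 1.38 in Ctrl (quartiles 0.97 to 1.83) and 2.27 in cKO (1.83 to 2.73). The Ctrl upper quartile and the cKO lower quartile met. In hormone-sensing-like cells the medians were 2.45 and 2.54. In basal-like cells both medians were 0.00, where most cells hold few UMIs of either gene after thinning. For Krt18 to Krt19 the luminal-progenitor-like medians were 2.81 and 4.39, with quartiles of 1.72 to 4.09 and 3.32 to 5.43.

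**Figure D4:**
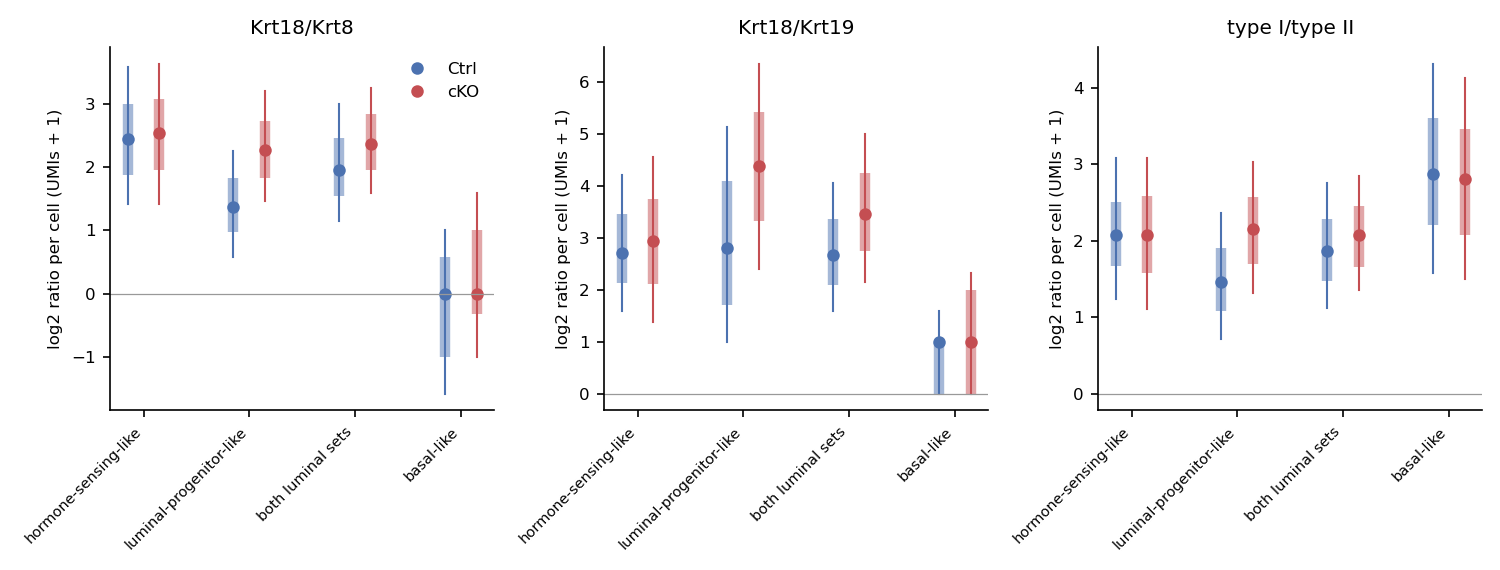
Per-cell log2 ratios of Krt18 to Krt8, Krt18 to Krt19 and type I to type II (cells thinned to 2000 UMIs, 1 UMI added) in 4 classes. Points are medians over cells, thick bars the quartiles and thin lines the 10th to 90th percentiles. The cKO luminal-progenitor-like cells lie above the Ctrl cells in each panel.

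Clusters 2 and 3, which held luminal-progenitor-like cells of both libraries, allowed the same comparison within a cluster. Cluster 2 was led by Klk10, Tnfaip2, Ccrl2 and Ltf and is called Ltf-high here. Cluster 3 was led by Ceacam1, Fam107b, Cyr61 and Aldh1a3 and is called Ceacam1-high. Keratins took no part in the clustering. Other genes still differed between the libraries within a cluster, so cell state was not held constant. In cluster 2 Ltf was at 477 CPM in Ctrl and 916 in cKO, Csn3 at 965 and 453, and Wfdc18 at 4423 and 7911. In cluster 3 Wfdc18 was at 1625 and 3211, while Ceacam1 (843 and 984), Csn3 (1277 and 1005) and Aldh1a3 (2369 and 2663) differed less. In the Ceacam1-high cluster Krt18 was at 31036 CPM in Ctrl and 41824 in cKO, and Krt8 at 11099 and 8394. In the Ltf-high cluster Krt18 was at 12291 and 15999, and Krt8 at 4434 and 3188. Both chains were thus about equally higher in the Ceacam1-high cluster: Krt18 by 2.53-fold (2.51 to 2.54) in Ctrl and 2.61-fold (2.60 to 2.63) in cKO, and Krt8 by 2.50-fold (2.47 to 2.53) and 2.63-fold (2.59 to 2.67).

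The Krt18 to Krt8 ratio therefore hardly differed between these clusters and differed between the libraries. It was 2.77 (2.74 to 2.80) in the Ltf-high and 2.80 (2.77 to 2.82) in the Ceacam1-high cluster of Ctrl, and 5.02 (4.95 to 5.09) and 4.98 (4.94 to 5.03) in cKO. The third cKO cluster of this class, cluster 10 with 68 cells, led by Hspa1a, Atf3 and other stress genes, had 5.72 (5.56 to 5.88). The difference between the libraries in the class as a whole was as large within either shared cluster. Krt19 behaved likewise against the library, with cKO at 0.490-fold (0.478 to 0.502) of Ctrl in the Ltf-high and 0.512-fold (0.493 to 0.532) in the Ceacam1-high cluster.

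Between these clusters, 6 of 16 keratins were higher and 8 lower in the Ceacam1-high cluster of Ctrl (8.03% and 26.2% of all 10682 genes). In cKO 6 of 15 were higher and 8 lower (6.54% and 25.9% of 10287). Krt80 was higher by 6.23-fold (4.77 to 8.22) and 3.87-fold (3.03 to 4.97), Krt7 by 2.62-fold (2.51 to 2.74) and 2.46-fold (2.36 to 2.55), Krt17 by 2.25-fold (2.01 to 2.51) and 2.09-fold (1.92 to 2.28), and Krt16 by 1.65-fold (1.47 to 1.87) and 1.64-fold (1.43 to 1.89). Krt19 ran against the other simple keratins, at 0.509-fold (0.496 to 0.522) and 0.532-fold (0.513 to 0.552) of its Ltf-high level. Krt14 was at 0.284 and 0.523, Krt15 at 0.178 and 0.404, and Krt23 at 0.0849 and 0.220 times it.

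**Figure D5:**
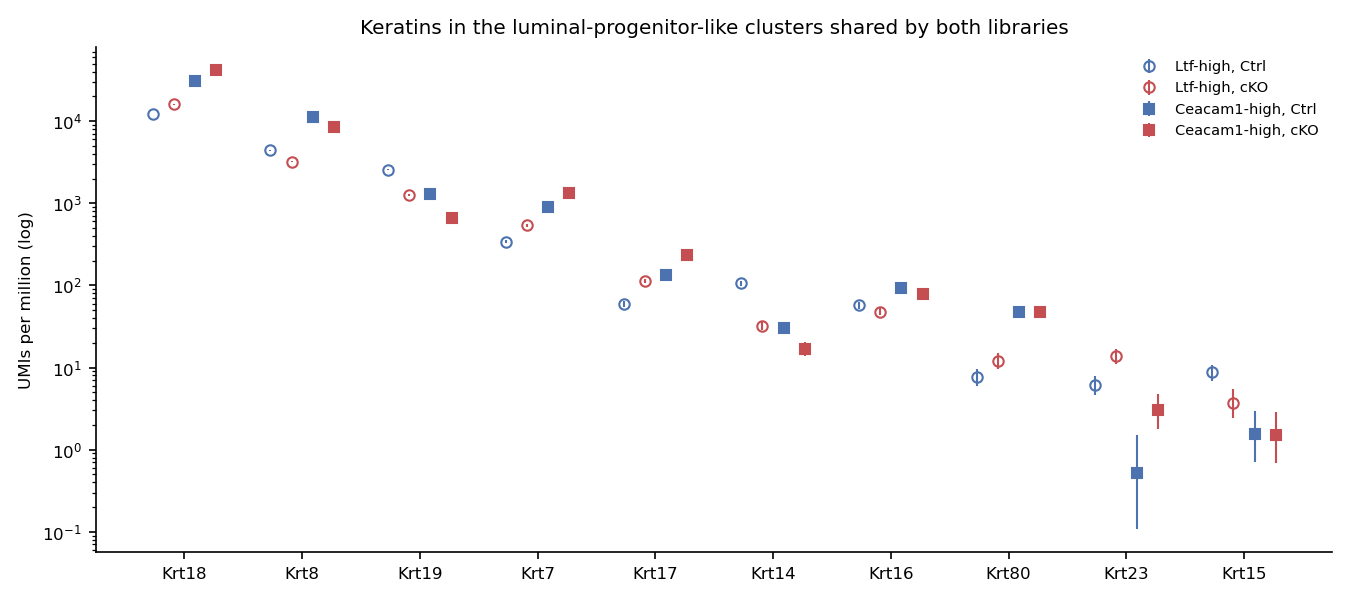
Level of 10 keratins in CPM (log axis) in the Ltf-high (open circles) and Ceacam1-high (filled squares) luminal-progenitor-like clusters of Ctrl (blue) and cKO (red), with 95% Poisson intervals. Krt18, Krt8, Krt7 and Krt80 stand higher in the Ceacam1-high cluster and Krt19 in the Ltf-high cluster, in both libraries.

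Across single cells of a class, thinned to 2000 UMIs, the correlation of Krt8 with Krt18 was highest in luminal-progenitor-like cells. The Spearman correlation of Krt8 with Krt18 was 0.79 over 665 Ctrl cells and 0.81 over 1012 cKO cells. It was 0.48 and 0.47 in hormone-sensing-like cells (605 and 1322 cells). Krt7 with Krt18 gave 0.41 and 0.43 in luminal-progenitor-like cells. Krt8 with Krt19 gave -0.04 and -0.05 there, although both genes were found in most of these cells. These values describe cells of 1 library each that share depth and class, and in basal-like cells, where thinned counts are sparse, no order is read from them. The luminal-progenitor-like class joins clusters 2 and 3, which differed the same way in Krt8 and Krt18 and the other way in Krt19. Correlations within a cluster were not computed. Median thinned Krt8 counts were 11 and 9 UMIs there and 6 and 5 in hormone-sensing-like cells. The order of the classes is therefore not read as closer pairing. Partner transcripts also met in the same cells. Among basal-like cells with a Krt5 UMI, 99.6% in Ctrl and 99.7% in cKO had a Krt14 UMI, against 97.5% and 98.1% of those without one. All thinned luminal-progenitor-like and hormone-sensing-like cells had a Krt18 UMI. With Krt14 and Krt18 in nearly all cells of these classes, such shares cannot show a link between partners. Among hormone-sensing-like cKO cells with a Krt6a UMI, 33.2% had a Krt4 UMI, against 26.3% of those without one.

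Genes that anchor, bind or regulate keratins were followed as lists, counted with the same 1.5-fold mark and read beside the shares of all genes. Those shares, higher and lower, were 13.7% and 18.3% in hormone-sensing-like, 7.21% and 13.7% in luminal-progenitor-like, and 9.89% and 9.07% in basal-like cells. Desmosome genes, which tie keratin filaments to cell contacts, were 2 higher and 1 lower of 9 measured in hormone-sensing-like cells (median log2 ratio 0.03). They were 0 and 0 of 9 in luminal-progenitor-like cells (-0.19) and 0 and 4 of 10 in basal-like cells (-0.44). In basal-like cells the desmosomal plakin Dsp was at 162 in Ctrl and 107 in cKO (in CPM, as are the values that follow) and the plakophilin Pkp1 at 80.0 in Ctrl and 43.2 in cKO. In hormone-sensing-like cells the desmosomal cadherins Dsg2 (34.7 in Ctrl and 54.4 in cKO) and Dsc2 (17.7 in Ctrl and 28.2 in cKO) were higher. Hemidesmosome and plakin linker genes were 1 higher and 0 lower of 10, 0 and 3 of 10, and 0 and 1 of 9 in the same order of classes. Itgb4, the integrin that keratins reach through plectin, was at 33.8 in Ctrl and 20.3 in cKO in luminal-progenitor-like and 54.5 in Ctrl and 29.2 in cKO in basal-like cells.

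Other intermediate filament genes were 3 higher and 1 lower of 7, 0 and 2 of 6, and 1 and 0 of 8. The lamin Lmna was at 2979 in Ctrl and 1876 in cKO in luminal-progenitor-like cells, and vimentin (Vim) at 3.39 in Ctrl and 7.29 in cKO in hormone-sensing-like cells. The 1 lower in hormone-sensing-like cells was Synm, at 6.91 in Ctrl and 0.561 in cKO (108 and 11 UMIs), 12.3-fold (6.62 to 25.4) lower. In cells with both luminal sets Synm had 237 and 19 UMIs. Transcription factors listed as keratin regulators were 3 higher and 2 lower of 16 in hormone-sensing-like (median -0.15), 1 and 5 of 16 in luminal-progenitor-like (-0.37) and 2 and 5 of 14 in basal-like cells (-0.50). Of the 3 higher in hormone-sensing-like cells, Trp63 rested on 3 and 20 UMIs and Grhl3 on 5 and 15. Sox9 was at 415 in Ctrl and 870.5 in cKO and Tfap2b, an AP-2 factor, at 53.9 in Ctrl and 26.5 in cKO in hormone-sensing-like cells. Elf5 was at 54.6 in Ctrl and 30.3 in cKO and Ehf at 188 in Ctrl and 117 in cKO in luminal-progenitor-like cells, though Elf5 was also a gate marker. Trp63, which maintains basal epithelium and was likewise a gate marker, was at 70.9 in Ctrl and 32.5 in cKO in basal-like cells, and Klf5 at 158 in Ctrl and 88 in cKO. Keratin-binding and modifying genes were 0 higher and 2 lower of 15, 1 and 0 of 15, and 1 and 0 of 15. The 2 lower in hormone-sensing-like cells were the transglutaminase Tgm1 (75.7 in Ctrl and 19.4 in cKO) and the chaperone Hspa8 (1983 in Ctrl and 1317 in cKO). In cells with both luminal sets 11.5% of all genes were higher and 17.2% lower. The regulators there were 4 higher and 8 lower of 16 (median -0.52). Desmosome genes were 1 and 0 of 9, linkers 0 and 0 of 10, other filament genes 1 and 1 of 8, and keratin-binding genes 0 and 1 of 15.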

How the data were processed

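The UMI counts per gene and cell barcode were deposited by the authors as raw count matrices, 1 per library. The submitters' processing notes name Cell Ranger 2 and the build mm10, while the matrix headers give software version 3.0.0, and the labels state Chromium 3′ v2 chemistry. Depth was 95520633 UMIs over 4237 barcodes in Ctrl and 103668011 over 6257 in cKO.

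Barcodes with at least 500 genes and at most 10% mitochondrial UMIs were kept (3416 and 5493), and Scrublet doublet calls (27 and 55, 0.790% and 1.00%) were removed. A cell passed a class gate with at least 8 UMIs per 10000 from at least 2 of its markers. The keratins, lists and gates were chosen with earlier results of these data known. The gate level, and leaving Trf and Dcn out of the luminal-progenitor and fibroblast gates, were set after marker levels were seen. Leiden clusters (resolution 1, 2000 genes, 30 components, 15 neighbours, scanpy 1.11.5) left keratins out. Levels are UMI sums over the cells of a class in 1 library, per 1000000 UMIs of those cells. Intervals are exact Poisson (levels), conditional binomial (ratios) and Clopper-Pearson (shares). Zero levels carry their upper limit. Every keratin with at least 20 UMIs was named, and up to 4 members per list and class. The last 400 bases of each of the 29 keratins matched no other annotated gene (97% identity over 98 bases). Calculations were checked on simulated counts. Ratios within basal clusters and between clusters 5 and 12 were added after seeing the data. Alternatives covered the gate, clustering, cell filter, doublets, scaling, weighting, fold mark, UMI minimum and thinning.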

Additional observations from a re-analysis of the deposited data

Results flagged for a closer look

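For 4 keratins the cKO-over-Ctrl log2 ratio passed the 1.5-fold mark in opposite directions in different classes. With 1 library per genotype, the difference between classes was not tested. Krt15 was at 1.65 in hormone-sensing-like and 1.54 in luminal-progenitor-like cells but at -0.88 in basal-like cells, its main site. Krt14 was at 1.44 in hormone-sensing-like and -0.92 in luminal-progenitor-like cells. Krt42 was at 1.60 and -0.70 in the same classes, from 5 and 19 UMIs in the first. Krt6a was at -0.67 and 1.07.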

How the results depend on the processing

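No paired analysis was possible because each group has 1 library and no replicate. Of the 26 keratin ratios past 1.5-fold in hormone-sensing-like, luminal-progenitor-like and basal-like cells, 25 stayed past it in the same direction under a stricter gate, with all barcodes, with doublet calls kept and with trimmed-mean scaling, 24 with each cell weighted equally, and 21 of the 25 measurable in keratin-free clusters. Those that changed sign were Krt15 (-1.16) and Krt6a (-0.77) in luminal-progenitor-like clusters, and Krt14 (-0.14) in hormone-sensing-like cells without cluster 14, an alternative chosen after seeing the data; the cause was not tested. Krt42 in luminal-progenitor-like cells (-0.70) was within the mark with the stricter gate (-0.55), all barcodes (-0.48), doublet calls kept (-0.46) and equal weights (-0.22). In hormone-sensing-like cells 6 of the 15 keratins with at least 100 UMIs were higher (10.3% of all such genes), and the 1 lower became 2 in the clusters and 0 with trimmed-mean scaling or a 2-fold mark. In luminal-progenitor-like cells the clusters gave 4 higher and 7 lower of 18, and a 2-fold mark 0 lower. In basal-like cells the 1 lower became 2 with the stricter gate, the clusters, all barcodes, trimmed-mean scaling and equal weights, and 0 with a 2-fold mark. The log2 change of Krt18 to Krt8 was 0.23, 0.84 and 1.17 in the 3 classes. In hormone-sensing-like cells it was 0.0946 in clusters and 0.0969 as a median over cells. As that median it was 0.89 for luminal-progenitor-like cells. For basal-like cells it was 0, where the stricter gate gave 1.25 and the clusters 1.24. The log2 change of type I to type II in hormone-sensing-like cells, 0.08, was -0.0222 in clusters, -0.00136 as a median over cells and 0.12 without cluster 14. It was 0.69 against 0.64 in luminal-progenitor-like cells as that median, and -0.0382 against -0.06 in basal-like clusters. Shares of cells with a UMI scale with depth: the Krt4 share in hormone-sensing-like cells was 2.62% and 18.5% at 1000 UMIs and 19.5% and 54.5% without thinning.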
